A study of Homo sapiens with 12 samples.

Results

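Collagen-poor cultures of microglia made from induced pluripotent stem cells (iMGLs) were compared between LACTB knock-out (KO) and wild-type (WT) clones. A library counted as collagen-poor when COL1A1, the gene for the main chain of type I collagen and a marker of fibroblast-like stromal cells, stood below a CPM (count divided by the column sum, scaled to 1000000 counts) of 100. The rule kept 7 of 12 libraries, 2 WT and 5 LACTB KO. The kept WT libraries were clone K of differentiation 1 and clone L of differentiation 2, called here WT K1 and WT L2, and the kept LACTB KO libraries were KO A1, A2, B1, C1 and C2 in the same notation. The 5 collagen-rich libraries were WT J1, J2, K2 and L1 and LACTB KO B2. All clones came from WTC11, an iPSC line widely used for genome editing. The KO clones carried CRISPR frameshift indels in LACTB, and each clone was differentiated 2 times, which the labels number 1 and 2. All cultures received IL34 at 100 ng/ml, TGFb at 50 ng/ml and MCSF at 25 ng/ml. They were replated at day 24 with CX3CL1 and CD200 at 100 ng/ml each and collected at day 27. Kept libraries held 24153233 to 27851429 estimated counts, so depth differed little between them. The clone was taken as the replicate, and the collagen-poor set therefore held 2 WT clones and 3 LACTB KO clones.

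LACTB is a serine hydrolase of the mitochondrial intermembrane space that forms filaments, and in these cells it is studied for its part in succinylcarnitine metabolism. Microglia are the resident phagocytes of the brain. They take up debris through scavenger, Fc and phosphatidylserine receptors and degrade it in lysosomes, which are acidified by the vacuolar ATPase and filled with cathepsins and glycosidases. Differentiations from iPSC can also carry cells that make collagen. In bulk RNA a gene can be low because fewer cells of a type are present or because each cell holds less of its RNA, and these cannot be told apart here.

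The libraries were selected on COL1A1, whose values are given as a description. In CPM of the column sum it read 7.40 in WT K1, 18.9 in WT L2, 49.4 in KO A1, 16.7 in KO A2, 48.5 in KO B1, 11.1 in KO C1 and 7.08 in KO C2. The libraries just inside the limit were KO A1 and KO B1, and those just outside were WT L1 at 217 and WT J2 at 228. KO B2 stood at 454, WT K2 at 2376 and WT J1 at 3652. The retained WT libraries thus came from clones whose other library was collagen-rich, and WT clone J was absent from the collagen-poor set. Microglia and macrophage markers were present throughout. The 21 listed identity genes, among them CSF1R, AIF1 and C1QA, all passed the expression filter and summed to 9648 to 9687 CPM in WT and 8854 to 9839 CPM in LACTB KO. Stromal markers summed to 209 to 363 CPM in WT and 234 to 474 CPM in LACTB KO, against 701 to 7999 CPM in the collagen-rich WT libraries. The stromal transcription factors TWIST1 and TWIST2 did not exceed 3 counts in any kept library. Of 20 granulocyte markers 10 were at or under 3 counts in all 7 libraries, ELANE and MPO among them, and 6 passed the expression filter. The granulocyte sum was 283 to 313 CPM in WT and 207 to 458 CPM in LACTB KO. Of 15 mast cell and basophil markers 9 were at or under 3 counts, TPSAB1 among them, and 4 passed the filter, with a sum of 179 to 213 CPM in WT and 128 to 279 CPM in LACTB KO. HPGD, one of these 4, lay above both WT libraries in all 5 KO libraries. Endothelial markers summed to 956 to 1298 CPM over both genotypes, but CDH5, CLDN5 and ERG were at or under 3 counts, and the genes carrying that sum, ENG and PECAM1, are also expressed by macrophages.

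**Figure D1:**
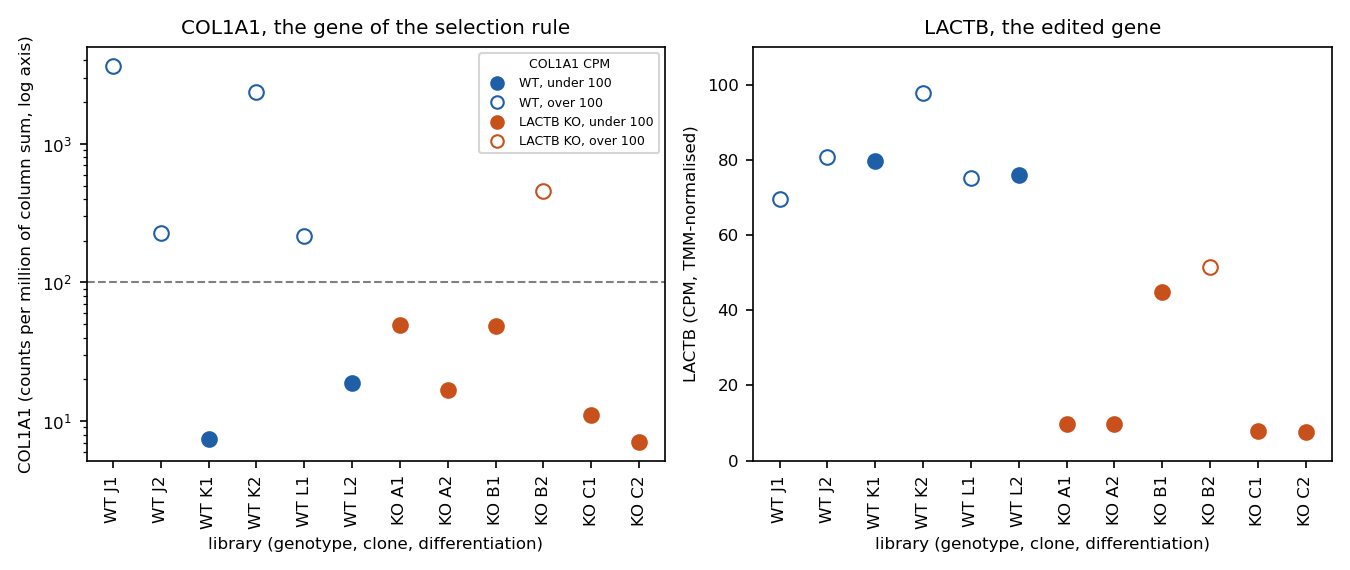
COL1A1 in CPM of the column sum (left, log axis, dashed line at the limit of 100) and LACTB in TMM-normalised CPM (right) for each of 12 libraries, WT in blue and LACTB KO in orange, with filled points for the 7 collagen-poor libraries. LACTB in KO B1 stood at 44.8 CPM, between the WT libraries and the other KO libraries.

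LACTB (ENSG00000103642.12, chromosome 15, 63121833 to 63142061, plus strand, GRCh38) was the first gene examined, since it checks the labels. It read 79.7 CPM in WT K1 and 75.9 CPM in WT L2. It read 9.77 and 9.64 CPM in KO A1 and A2, 44.8 CPM in KO B1, and 7.88 and 7.57 CPM in KO C1 and C2. All 5 KO libraries lay below both WT libraries, but clone B kept 57.6% of the WT mean, whereas clones A and C kept 12.5% and 9.93%. The log2 fold change over clones was -1.94 (SE 0.70, unadjusted p = 0.028, edgeR quasi-likelihood test, adjusted p = 0.9999). An exact two-sided permutation test over the 5 clones gave p = 0.2, which is the smallest p that 2 clones against 3 allow. Without clone B the log2 fold change was -3.15 (adjusted p = 0.00328). These levels are of the transcript and do not measure the protein.

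Across the transcriptome, 209 of 15844 tested genes had a log2 fold change above 1 and 167 had one under -1. The median was 0.00, where the normalisation centres it. No gene had an adjusted p under 0.05 in the edgeR quasi-likelihood test (0% of genes tested, smallest adjusted p = 0.751). At an unadjusted p under 0.05 there were 593 genes (3.74%), 316 higher (1.99%) and 277 lower (1.75%) in LACTB KO. Limma voom on single libraries with clone as random effect also called 0 genes, but its smallest adjusted p was 0.0566. Its estimated correlation between libraries of a clone was -0.04, so it treated them nearly as independent. The DESeq2 Wald test on the clone sums of the edgeR test called 51 genes, of which 40 were lower in LACTB KO. LACTB was not among those 51. The design of 2 against 3 clones limits what a test can call, so the comparison is described below by sizes and by overlap, meaning whether all 5 KO libraries lay on one side of both WT libraries. This held for 501 genes above (3.16% of genes tested) and 618 genes below (3.9%), and these shares are the background for every gene group that follows. Of these, 252 and 353 genes reached at least 5 CPM in every library of the higher genotype.

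The genes with the widest gap below WT, among protein-coding genes of at least 5 CPM in both WT libraries, were led by TDO2, which opens the kynurenine pathway of tryptophan breakdown. TDO2 read 6.12 and 7.13 CPM in WT and 0.523 to 2.15 CPM in LACTB KO (log2 fold change -2.37, SE 0.35). RNASE1, a secreted ribonuclease, read 45.2 and 20.7 CPM in WT and 0.635 to 9.43 CPM in LACTB KO, with KO A2 alone near the floor. MNDA, an interferon-inducible nuclear protein of myeloid cells, read 12.2 and 9.27 CPM against 2.47 to 5.10 CPM. EPAS1, the hypoxia-inducible factor HIF-2 alpha, read 22.1 and 20.2 CPM in WT against 4.11 to 12.5 CPM (log2 fold change -1.32, SE 0.20). Complement component C2 read 20.9 and 17.1 CPM against 3.96 to 11.6 CPM, and the receptor phosphatase PTPRG 17.4 and 17.2 CPM against 6.99 to 10.9 CPM. FOLR2, a folate receptor of resident macrophages, read 18.3 and 13.1 CPM against 3.81 to 8.89 CPM, and MGLL, which hydrolyses monoglycerides and the endocannabinoid 2-arachidonoylglycerol, 23.9 and 17.7 CPM against 8.45 to 12.1 CPM. The remaining genes of this group were CTSK and LACTB itself.

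The genes with the widest gap above WT showed smaller differences. PRKCH, the eta isoform of protein kinase C, read 5.61 and 3.74 CPM in WT and 8.44 to 10.3 CPM in LACTB KO (log2 fold change 1.02, SE 0.21). MTARC2, a molybdenum enzyme of the outer mitochondrial membrane, read 5.14 and 6.64 CPM against 8.30 to 22.1 CPM, and FAM149A 4.92 and 7.78 CPM against 9.24 to 18.4 CPM. MFGE8, the secreted bridge between phosphatidylserine on dying cells and integrins on phagocytes, read 5.94 and 7.25 CPM against 8.51 to 11.6 CPM (log2 fold change 0.60, SE 0.15). For MFGE8 the collagen-rich WT libraries lay at 17.7 to 46.2 CPM, above all 5 KO libraries, and its log2 fold change was -1.03 over 12 libraries. The other 6 were PABPC1L, CYP2R1 (a vitamin D 25-hydroxylase), PLPPR2, TTC12, HOOK2 and ENSG00000289758, with log2 fold changes of 0.31 to 0.65.

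**Figure D2:**
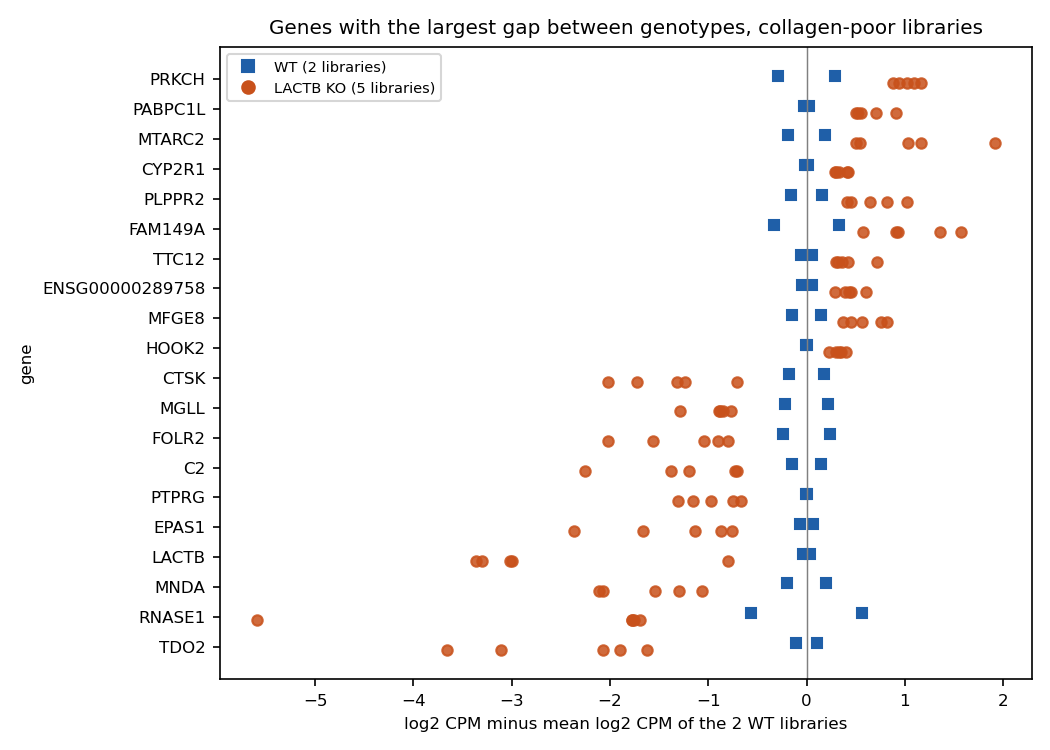
The 10 genes per direction with the largest gap between genotypes; the x axis is log2 CPM minus the mean log2 CPM of the 2 WT libraries, squares are WT libraries and circles LACTB KO libraries. For TDO2 and RNASE1 the KO libraries spread over more than 1 log2 unit, while for HOOK2 and CYP2R1 they sit close together just above WT.

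Lysosomal genes lay mostly below WT. Of 67 tested members, 55 had a negative log2 fold change and 12 a positive one, with a median of -0.10. All 5 KO libraries lay below both WT libraries for 13 members (19.4%, against 3.9% of all genes), and above for none. Unadjusted p was under 0.05 for 11 members in the lower direction (against 1.75% of all genes), and 0 members had an adjusted p under 0.05. Averaged over its members the list stood, in log2 CPM, at 7.32 in WT K1 and 7.25 in WT L2, and 7.07 to 7.22 in LACTB KO. The difference was of like size within differentiation 1 (-0.16, 1 WT library) and differentiation 2 (-0.17, 1 WT library). The 13 genes included cathepsins (CTSK, CTSS, CTSZ), vacuolar ATPase subunits (ATP6V0D2, ATP6V1A, ATP6V1H), membrane glycoproteins (LAMP2, CD68), the glycosidase FUCA1, the sulfatase ARSB, and the sphingolipid activators PSAP and GM2A.

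Among them, CD68, a macrophage member of the LAMP family, read 554 and 513 CPM in WT and 415, 392, 407, 356 and 413 CPM in KO A1, A2, B1, C1 and C2 (log2 fold change -0.42, SE 0.08, unadjusted p = 0.00096). ATP6V0D2, the d2 subunit found in osteoclasts and macrophages, read 13.4 and 13.1 CPM in WT and 9.68, 1.76, 4.68, 5.88 and 8.25 CPM in the same KO order (-1.20, SE 0.19). CTSK, the collagen-degrading cathepsin, read 11.002 and 8.55 CPM in WT and 2.39 to 5.92 CPM in LACTB KO (-1.39, SE 0.27). The 2 WT libraries were close to each other for CD68 and ATP6V0D2, while KO A2 was the lowest library for ATP6V0D2 and CTSK. Several abundant members shifted by little. PSAP, the precursor of the saposins, read 7075 and 6952 CPM in WT and 5881 to 6887 CPM in LACTB KO (-0.13, SE 0.08), and CTSZ 1078 and 1096 CPM against 866 to 1055 CPM (-0.22, SE 0.07). FUCA1 read 348 and 376 CPM against 203 to 309 CPM (-0.49, SE 0.16), and ARSB 73.4 and 75.3 CPM against 61.0 to 66.5 CPM (-0.23, SE 0.08).

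Phagocytic receptors showed the same kind of count. All 5 KO libraries lay below both WT libraries for 7 of 36 tested members (19.4%, against 3.9%) and above for none, while the list median was only -0.04, with 21 members negative and 15 positive. Unadjusted p was under 0.05 for 8 members, all lower (against 1.75% of all genes), and 0 members had an adjusted p under 0.05. In mean log2 CPM the receptor list stood at 6.48 and 6.55 in WT and 6.27 to 6.40 in LACTB KO, and the difference was -0.14 within differentiation 1 and -0.21 within differentiation 2. CD163, the haemoglobin scavenger receptor, read 228 and 226 CPM in WT and 130, 177, 120, 153 and 138 CPM in KO A1, A2, B1, C1 and C2 (-0.69, SE 0.12, unadjusted p = 0.00075). MSR1, the class A scavenger receptor, read 101 and 111 CPM in WT, and its KO libraries ran from 49.6 to 101 CPM with KO A1 at the WT level. MERTK, a receptor for the phosphatidylserine bridges GAS6 and PROS1, read 81.6 and 63.1 CPM against 50.1 to 61.7 CPM (-0.36, SE 0.11). SIGLEC1, a sialic acid-binding lectin that is also interferon-inducible, read 25.4 and 33.8 CPM against 10.8 to 24.7 CPM (-0.95, SE 0.29). The Fc gamma receptors in this group were FCGR2A at 97.5 and 100 CPM against 68.1 to 84.7 CPM, FCGR3A at 45.3 and 57.2 CPM against 16.8 to 42.2 CPM, and FCGR2B at 5.68 and 5.53 CPM against 1.38 to 4.39 CPM. The counting can split reads of Fc gamma receptor genes between close relatives within the family, so their separate values are uncertain.

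Because clone B kept part of its LACTB, these counts were also taken without KO B1. Whenever a library is left out, fewer libraries must agree, so counts tend to rise for any list and for all genes. Without KO B1 they were 16 of 67 lysosomal genes (23.9%) and 8 of 36 phagocytic receptors (22.2%) below WT, against 5.66% of all genes, and none above. The rise is therefore not a result about LACTB level. The counts also depended on other libraries. Without WT K1 they were 17 lysosomal genes (25.4%) and 10 receptors (27.8%), against 15.1% of all genes. Without WT L2 they were 26 (38.8%) and 11 (30.6%), against 14.4%. Without KO A1 they were 22 (32.8%) and 9 (25.0%), against 5.6%, and without both libraries of KO clone A 27 (40.3%) and 11 (30.6%), against 8.11%.

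Markers of cell identity were read beside these lists, with which they share members. The 2 identity genes below WT without overlap, CD68 and CD163, were already counted in them. The mean log2 CPM of the 21 microglia and macrophage identity genes was 7.97 and 7.932 in WT and 7.71 to 7.926 in LACTB KO. These levels failed to overlap by a narrow margin only, and the CPM sums overlapped. The difference was -0.22 within differentiation 1 and -0.09 within differentiation 2. The 4 tested mast cell and basophil markers stood at 2.10 and 2.07 in WT and 2.13 to 3.10 in LACTB KO. The difference was 0.25 within differentiation 1 and 0.54 within differentiation 2. Of these 4, however, 3 had a negative log2 fold change and 1 a positive one (median -0.11). HPGD alone separated the genotypes, and the CPM sums of the mast cell list overlapped. The part of identity and mast cell markers in the lysosomal and receptor results was not tested.

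**Figure D3:**
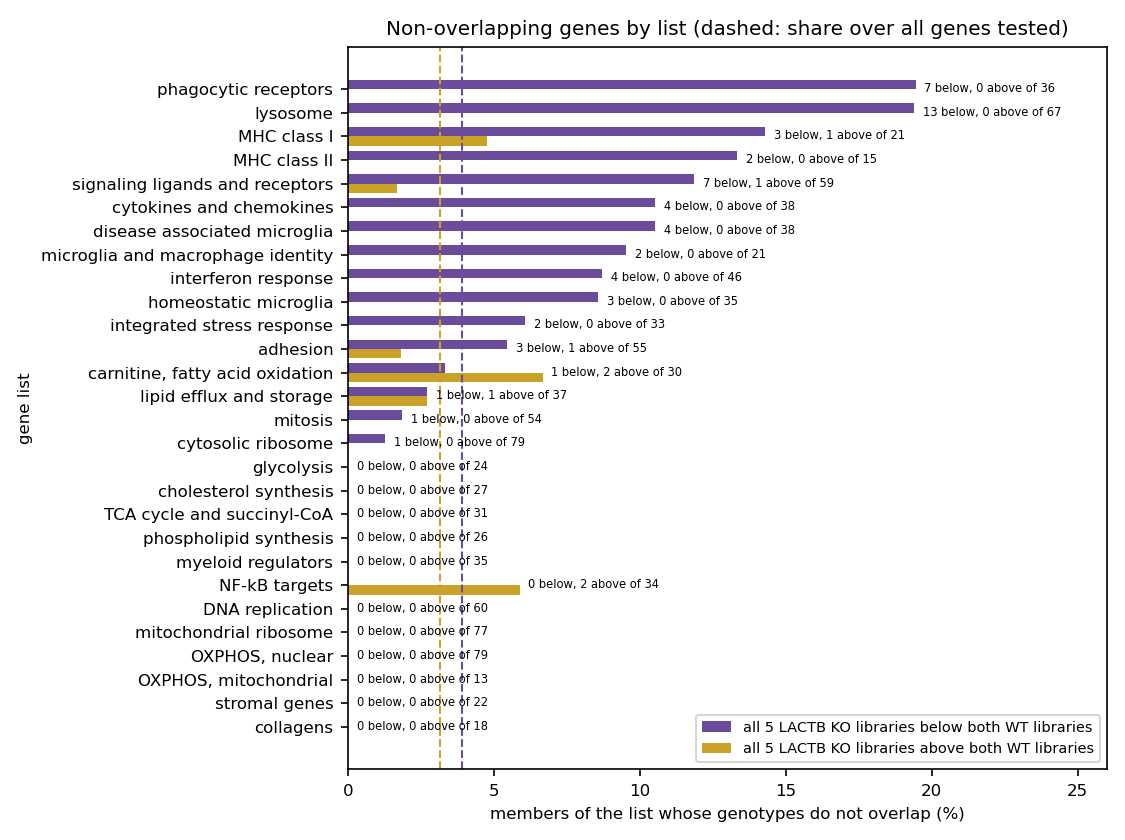
Percent of tested members of each gene list for which all 5 LACTB KO libraries lay below (purple) or above (yellow) both WT libraries, with the same shares over all genes as dashed lines (3.9% and 3.16%). Phagocytic receptors (7 of 36) and lysosome (13 of 67) have the longest purple bars, and 11 of the lists shown have no such member in either direction; marker lists of other blood, endothelial, neural and pluripotent cells are not drawn.

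The same genes were then read in the libraries that the rule had left out. WT L1, the other library of WT clone L, was placed on the KO side for most of them. Of the 618 genes below WT in the collagen-poor set, WT L1 was at or under the highest KO library for 505 (81.7%), and of the 501 genes above, it was at or over the lowest KO library for 398 (79.4%). For the lysosomal genes this held for 13 of 13, and for the phagocytic receptors for 6 of 7. CD163 read 118 CPM in WT L1, CD68 339 CPM and GPNMB 20.1 CPM, each under all 5 collagen-poor KO libraries. WT J2 was at the other extreme, at or over the lower WT value for 13 of 13 lysosomal genes and 7 of 7 receptors, with CD163 at 1067 CPM, CD68 at 1366 CPM and GPNMB at 1728 CPM. WT K2, the other library of WT clone K, lay on the KO side for 6 of 13 lysosomal genes and on the WT side for 4, and WT J1 was on the KO side for 6 and on the WT side for 6. KO B2, which offers the only left-out KO value, lay on the KO side for 379 of the 618 genes (61.3%) and on the WT side for 151 (24.4%). For CD163 it read 226 CPM, at the collagen-poor WT level.

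With a limit of 300 CPM, which admits WT J2 and WT L1 and so compares 4 WT with 5 KO libraries, 66 genes lay above and 86 below without overlap. Of the original 501 and 618 genes, 64 and 75 were among them. No lysosomal gene, 1 phagocytic receptor (FCGR2B) and 2 signaling genes (EFNA1 and EGFR) still lay below, or 0%, 2.78% and 3.39% of these lists against 0.521% of all genes at this limit. The list medians nevertheless moved downward, to -0.37 for lysosome and -0.38 for phagocytic receptors, with WT J2 the highest library for both lists. The WT libraries thus spanned a range wider than the difference between genotypes: the lysosome list averaged 6.98 log2 CPM in WT L1 and 8.12 in WT J2.

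**Figure D4:**
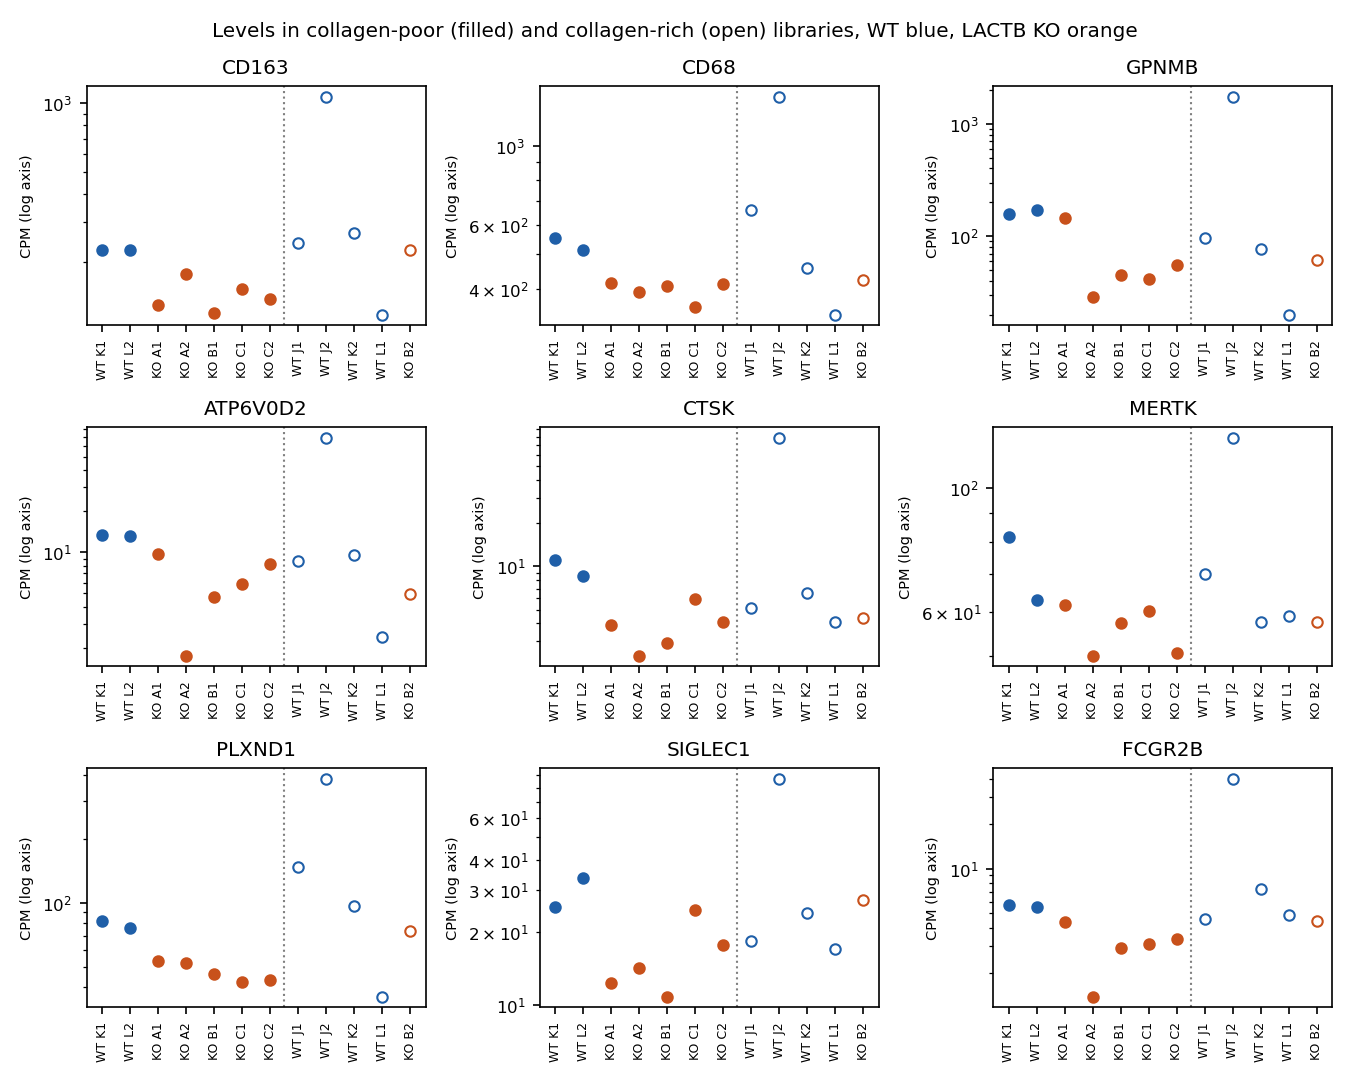
CPM (log axes) of 9 genes named in the text in each library, WT in blue and LACTB KO in orange; filled points left of the dotted line are collagen-poor and open points right of it collagen-rich. For CD163, WT J2 stands at 1067 CPM and WT L1 at 118 CPM, above and below all collagen-poor libraries.

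Signaling and adhesion genes were close to balanced in the collagen-poor set. Of 59 signaling ligands and receptors, 29 had a positive and 30 a negative log2 fold change, with a median of -0.01 in contrast to -0.35 over 12 libraries. Still, 7 members (11.9%) lay below WT without overlap. PLXND1, a semaphorin receptor, read 82.3 and 76.0 CPM in WT and 53.0, 51.9, 46.1, 42.3 and 43.5 CPM in KO A1, A2, B1, C1 and C2 (-0.75, SE 0.10, unadjusted p = 0.00022). Its co-receptor NRP1 read 183 and 171 CPM against 106 to 137 CPM (-0.53, SE 0.09), and the ephrin receptor EPHB2 16.5 and 14.8 CPM against 9.94 to 13.3 CPM. BMPR1A, EFNA1, SEMA3A and EGFR were the other 4. FGF2 alone lay above, at 0.583 and 0.610 CPM in WT and 1.12 to 1.57 CPM in LACTB KO, but its log2 fold change was -1.28 over 12 libraries. The 55 adhesion genes had a median of 0.01 in contrast to -0.15 over 12 libraries. Below WT lay 3 members (5.5%, against 3.9% of all genes) and above 1 (1.8%, against 3.16%). Among them LAMB2, a laminin chain of basement membranes, read 9.69 and 6.07 CPM against 2.47 to 4.26 CPM. All 4 collagen-rich WT libraries lay higher than these KO libraries, at 8.61 to 45.3 CPM. Over 12 libraries LAMB2 no longer separated the genotypes, because the left-out KO B2 did not lie below every WT library.

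Collagens and stromal genes are tied to the rule and are only described. Over the clones the median log2 fold change was 0.39 for 18 collagen genes and 0.64 for 22 stromal genes, in contrast to -2.76 and -2.61 over 12 libraries. None of these genes separated the genotypes, and the direction depended on the differentiation. Within differentiation 1 the stromal mean was 1.09 log2 units higher in LACTB KO than in WT K1, and within differentiation 2 it was 0.53 lower than in WT L2. COL8A2 read 55.0 and 43.7 CPM in WT and 37.6 to 63.5 CPM in LACTB KO, and fibronectin FN1 97.3 and 115 CPM against 84.6 to 221 CPM, with KO A1 the highest.

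**Figure D5:**
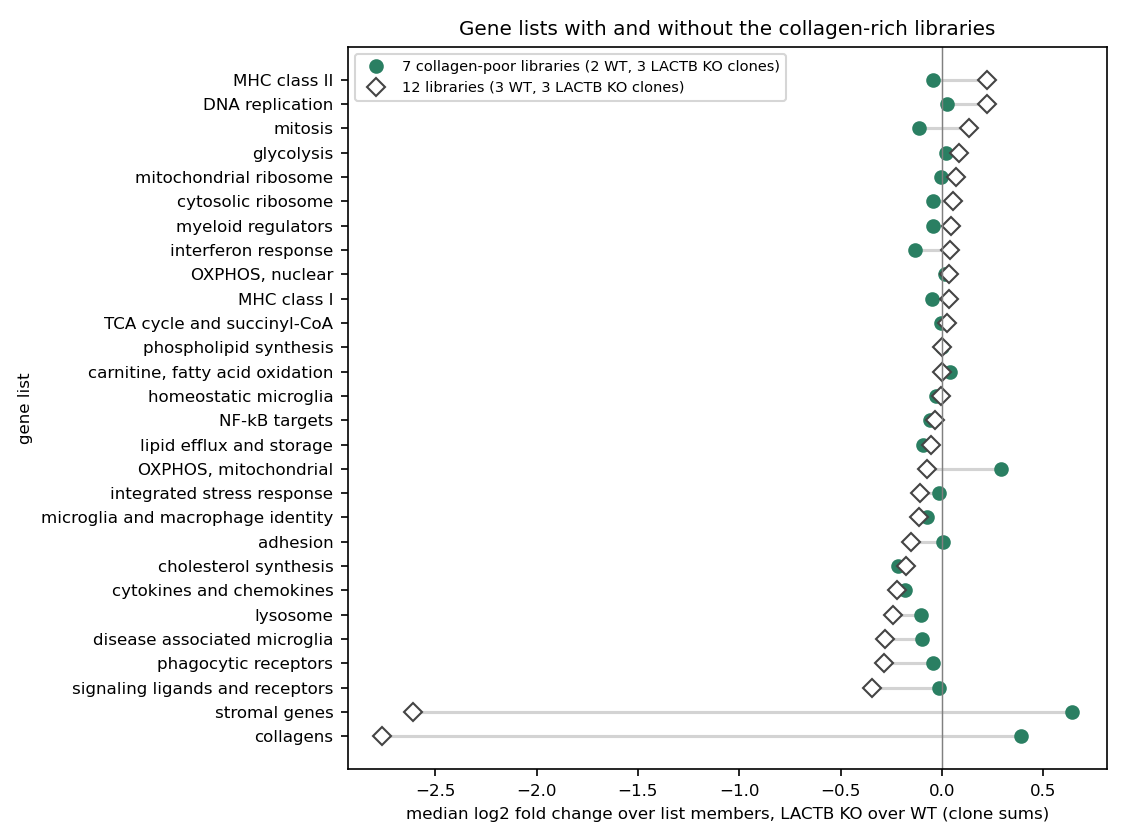
Median log2 fold change (LACTB KO over WT, clone sums) of each gene list in the 7 collagen-poor libraries (filled circles) and in 12 libraries (open diamonds). Collagens and stromal genes cross from about -2.7 to above 0, the signaling list moves from -0.35 to -0.01, and most other lists stay within 0.3 of 0 in both.

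Genes of microglial state were mostly lower by small amounts. In the disease-associated list, which holds genes that microglia raise near plaques and around lipid debris, 26 of 38 tested members were negative (median -0.10) and 4 (10.5%) lay below WT without overlap. GPNMB, a transmembrane glycoprotein of lipid-laden phagocytes, read 159 and 172 CPM in WT and 145, 28.6, 45.5, 41.8 and 55.8 CPM in KO A1, A2, B1, C1 and C2 (-1.48, SE 0.25, unadjusted p = 0.00076). KO A1 was thus close to WT, and the other 4 KO libraries read less than 56 CPM. FABP3, a fatty acid-binding protein, read 5.87 and 4.01 CPM against 1.14 to 2.94 CPM, and CD68 and CTSZ were the other 2. In the homeostatic list 24 of 35 were negative (median -0.03) with 3 members (8.6%, against 3.9% of all genes), MERTK, FOLR2 and SIGLEC8, below. The transcription factors of the myeloid list did not separate: SPI1, which encodes PU.1, read 571 and 535 CPM in WT and 532 to 592 CPM in LACTB KO. CD9, a tetraspanin raised in plaque-associated microglia, read 187 and 119 CPM against 146 to 198 CPM, and LGALS3 read 13.3 and 9.12 CPM against 5.38 to 15.7 CPM.

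Inflammatory genes varied widely between libraries of a genotype. TNF read 109 and 143 CPM in WT and 107, 83.0, 109, 62.6 and 296 CPM in KO A1, A2, B1, C1 and C2, so KO C2 lay above all others and KO C1 below. CXCL8 read 52.9 CPM in WT K1 and 237 CPM in WT L2, and 24.7 to 232 CPM in LACTB KO, again with KO C1 lowest and KO C2 highest. IL1B read 374 and 596 CPM against 187 to 448 CPM, and CCL3 39.4 and 90.8 CPM against 12.02 to 94.2 CPM, both with overlap. In the list of cytokines and chemokines 4 of 38 (10.5%) lay below without overlap, namely IL10, OSM, CXCL10 and CXCL12. IL10, which restrains inflammation, read 3.06 and 3.47 CPM against 1.21 to 2.57 CPM (-0.65, SE 0.26). Of 46 interferon response genes 35 were negative (median -0.13) and 4 (8.7%) lay below, among them IFI44 at 10.7 and 9.31 CPM against 3.17 to 7.99 CPM and IFI44L at 7.69 and 10.1 CPM against 2.09 to 7.35 CPM. Over 12 libraries the interferon median was 0.04. The NF-kB list, which also holds parts of the pathway such as RELA and TRAF2, had 23 of 34 members negative (median -0.06). Above WT lay 2 members (5.9%, against 3.16% of all genes), and none lay below. RELA read 82.6 and 77.9 CPM against 83.6 to 88.4 CPM, and TRAF2 15.7 and 12.4 CPM against 15.9 to 18.4 CPM.

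Antigen presentation genes had medians of -0.05 for both MHC class II and class I. Below WT lay 2 of 15 (13.3%) and 3 of 21 members (14.3%), against 3.9% of all genes. With DESeq2 size factors the class I count was 1 of 21 (4.76%, against 3.57% of all genes). The 2 class II members were HLA-DMA and CTSS, and CTSS was also counted among the lysosomal genes. The class II median was 0.22 over 12 libraries. HLA-DMA, which loads peptides on class II molecules, read 159 and 153.5 CPM in WT and 140 to 152.8 CPM in LACTB KO, and its fold change turned positive over 12 libraries (0.18), where the collagen-rich WT libraries ran down to 60.2 CPM. TAPBP, the class I peptide-loading chaperone, lay above at 204 and 196 CPM against 210 to 226 CPM.

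Mitochondrial, ribosomal and cell cycle genes had few members that separated the genotypes. None of 79 nuclear oxidative phosphorylation genes separated the genotypes, and their median was 0.01 (0.03 over 12 libraries). The ATP synthase beta subunit ATP5F1B read 790 and 713 CPM in WT and 663 to 833 CPM in LACTB KO. All 13 mitochondrially encoded genes had a positive fold change in the collagen-poor set (median 0.29) but none separated the genotypes, and their median was -0.07 over 12 libraries. That count rested on KO C2, since 8 of 13 (61.5%, against 4.77% of all genes) lay above WT without it and 11 of 13 (84.6%, against 8.06%) without clone C. MT-CO1, a cytochrome c oxidase subunit, read 12863 and 11890 CPM in WT and 11677 to 15472 CPM in LACTB KO, with KO C2 lowest. Cytosolic and mitochondrial ribosomal proteins had medians of -0.05 and 0.00, and 1 of 79 and 0 of 77 members lay below. DNA replication genes had a median of 0.03 in contrast to 0.22 over 12 libraries, with MCM2 at 96.4 and 70.6 CPM against 62.9 to 120 CPM. Mitosis genes had a median of -0.11 in contrast to 0.13, with 50 of 54 members negative and TTK alone below. Their difference was -0.23 within differentiation 1 and -0.06 within differentiation 2.

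Few lipid and carnitine genes separated the genotypes. Cholesterol synthesis genes had a median of -0.21, with 25 of 27 negative and none separated. Their list level followed the differentiation, with 5.81 log2 CPM in WT K1 and 5.72 to 5.97 in the KO libraries of differentiation 1, and 6.84 in WT L2 and 6.64 to 6.76 in those of differentiation 2. The differences within differentiations were 0.04 and -0.14. In the list of carnitine and fatty acid oxidation genes CPT1B, a carnitine palmitoyltransferase, and SLC22A5, the plasma membrane carnitine transporter, lay above, and ECI2 below. That is 2 of 30 tested genes above (6.7%, against 3.16% of all genes) and 1 below (3.3%, against 3.9%). SLC22A5 read 6.70 and 6.45 CPM in WT and 6.77 to 11.3 CPM in LACTB KO, and CPT1B 13.6 and 12.4 CPM against 13.6 to 20.2 CPM, so the gap was narrow in both, and for CPT1B the log2 fold change was -0.26 over 12 libraries. The tricarboxylic acid cycle list had a median of 0.00 over 31 genes, and none of them separated the genotypes.

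Whether the genotype contrast differed between collagen-poor and collagen-rich libraries was tested as an interaction on 12 libraries. Libraries of a clone were taken as independent in this test. No gene of 18463 had an adjusted p under 0.05 in the edgeR quasi-likelihood test (0%), and 362 had an unadjusted p under 0.05 (1.96%). The collagen-rich class held 1 LACTB KO library, so the test rests on that library for the KO side of this class. Over 12 libraries the clone-sum comparison gave 141 genes higher (0.802%) and 977 lower (5.56%) in LACTB KO at an unadjusted p under 0.05, while the collagen-poor set gave 316 and 277.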

How the data were processed

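Bulk RNA-seq of WTC11 iMGLs was used. The authors extracted RNA with RNeasy columns, made TruSeq v2 libraries, trimmed paired reads with Cutadapt and aligned them to hg38 with STAR. They deposited estimated counts per gene, unscaled; the counting tool, annotation and strand handling are not given in the sources used here. As 10.8% to 11.5% of values were not whole, values were rounded, where the plan had assumed counts, and summed per clone. Genes were tested with edgeR 4.0.16 in R 4.3.3 (filterByExpr, TMM, quasi-likelihood test, Benjamini-Hochberg over 15844 genes, threshold 0.05). Column names of WT libraries hold the letters SCR, and the labels call them WT. In the clone-sum fits with the low-count filter, p-values measure the spread between clones. In the collagen-poor set WT K, WT L and KO B entered as 1 library each, so this spread also holds differences between differentiations and libraries. The interaction, the differentiation block and the single-library fit took libraries of a clone as independent, so their p-values do not measure the spread between clones. Levels are CPM with TMM factors of 12 libraries, logged with a prior count of 2. Gene positions came from GENCODE 44. The study's linear mixed model was not run; limma 3.58.1 voom with clone as random effect and DESeq2 1.42.0 were alternatives, as were other filters, scalings, COL1A1 limits of 30 and 300 CPM, left-out libraries and clones, and differentiation as a block. The titles of the libraries number the differentiation 1 or 2. Same-numbered libraries of different clones were taken as made together, which the titles do not state. Deviations from genotype means correlated by 0.114 on average over 5 pairs of the same differentiation (-0.05 to 0.27). With 2 WT libraries, the value for pairs of different differentiations (-0.114) is its mirror by construction and adds nothing. Named genes are LACTB, COL1A1, the 10 protein-coding genes outside chromosome Y per direction with the largest gap and at least 5 CPM in the higher genotype, up to 3 such genes in each of 36 lists (the 2 most abundant where none qualified) and genes the paper names. MSR1, FCGR3A, FUCA1, PSAP, ARSB, FGF2, FABP3 and EGFR, and genes given without values, were named after their values were seen. The libraries, lists and genes were chosen with earlier results of these data known, and no sequence was examined. The fit was tested on simulated data. A few genes that the naming rule picked are not reported here.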

Additional observations from a re-analysis of the deposited data

Results flagged for a closer look

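In each of 111 genes and 36 lists, the 5 collagen-poor LACTB KO libraries were searched for 1 library far from the other 4, which chance alone gives in about 1 of 20 groups, and 18 were found. KO B1 was the highest for LACTB (44.8 CPM) and CD9 (198 CPM) and the lowest for MGLL (8.45 CPM) and for the neural marker list (mean 0.52 log2 CPM). KO A1 was the highest for FN1 (221 CPM), GPNMB (145 CPM), ENG (850.01 CPM), MSR1 (101 CPM), FGF2 (1.57 CPM) and IL6 (0.414 CPM). KO A2 was the lowest for RNASE1 (0.635 CPM) and the highest for the T cell receptor gene CD3G (4.37 CPM). KO C1 was the lowest for RPL21 (296 CPM) and DAP3 (74.3 CPM). KO C2 was the highest for TNF (296 CPM) and TTC12 (8.66 CPM) and the lowest for MT-CO1 (11677 CPM) and TRAF2 (15.9 CPM).

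In 10 results every KO library of differentiation 1 lay on one side of WT K1 and every KO library of differentiation 2 on the other side of WT L2, and the difference was not tested. In log2 units for differentiations 1 and 2, KO minus WT was 1.97 and -0.79 for COL1A1, 0.54 and -0.32 for FN1, 0.62 and -0.46 for FBLN1, 1.09 and -1.99 for IL6, 0.87 and -0.49 for the collagens, 1.09 and -0.53 for stromal genes, 0.10 and -0.15 for adhesion genes, -0.12 and 0.06 for cytosolic ribosomal proteins, -0.12 and 0.08 for MHC class II, and 0.33 and -0.17 for pluripotency markers. Each differentiation held 1 WT library, so such a reversal is common even without a genotype difference. It was searched for in the same 111 genes and 36 lists.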

How the results depend on the processing

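The collagen-poor set held 2 WT libraries, of different clones and differentiations, which limits each comparison. LACTB was lower in LACTB KO under all 20 alternatives (log2 fold change -3.18 to -1.54). Its adjusted p passed the threshold without the low-count filter (-1.94, edgeR quasi-likelihood test, adjusted p = 6.57e-55, 251 genes called), with a COL1A1 limit of 30 CPM (-3.18, 1 gene called) and without KO B1 (-3.15), and differentiation 2 alone gave -3.14. Without the filter the SE was 0.12, against 0.70 with it, although the KO clones kept 9.93% to 57.6% of the WT mean. The p without the filter therefore does not measure the spread between clones. With differentiation as a replicate block on single libraries, LACTB was at -2.53 (edgeR quasi-likelihood test, adjusted p = 0.959) and 0 genes were called. At an unadjusted p under 0.05, 211 genes were higher and 245 lower in that fit, and the block changed no call. Leaving out single libraries or clones gave 0 to 1 genes with an adjusted p under 0.05 (LACTB without KO B1, TRIM4 without WT L2, ENSG00000275895 without WT K1) and LACTB log2 fold changes of -3.15 to -1.54. DESeq2 called 51 genes. The cause of these differences in calls was not tested.

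Genes with an unadjusted p under 0.05 numbered 792 higher and 718 lower without the filter, 76 and 439 with a limit of 300 CPM, and 141 and 977 with 12 libraries. Single libraries as replicates gave 209 higher, and limma voom 181. Leaving out libraries or clones gave 199 to 445 higher and 198 to 400 lower, the former lowest without KO C1. Genes without overlap below WT numbered 1018 without the filter. Above and below they numbered 1444 and 1751 at 30 CPM, 66 and 86 at 300 CPM, 10 and 31 with 12 libraries, and 690 to 2350 and 785 to 2672 with libraries or clones left out, the most without WT K1 (2350 and 2672) or WT L2 (2301 and 2531), where fewer libraries must agree.

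List medians at 300 CPM were -2.02 (collagens), -1.58 (stromal), -0.15 (adhesion), -0.30 (signaling), 0.28 (MHC class II), -0.41 (disease-associated), -0.38 (phagocytic receptors), -0.37 (lysosome), 0.40 (mast cell), -0.32 (endothelial) and -0.23 (microglia and macrophage identity). With 12 libraries they were -2.76 (collagens), -2.61 (stromal), -0.15 (adhesion), -0.35 (signaling), -0.071 (mitochondrially encoded), 0.22 (MHC class II), -0.29 (phagocytic receptors), -0.24 (lysosome), 0.31 (mast cell) and -0.36 (endothelial). At 30 CPM they were -0.084 (stromal) and -0.10 (glycolysis). Differentiation 1 alone gave -0.51 (granulocyte), and differentiation 2 alone -0.49 (collagens), -0.52 (stromal), -0.16 (MHC class I), -0.24 (erythroid) and 0.34 (lymphoid). With libraries or clones left out they ran from 0.38 to 1.20 (collagens, highest without WT L2), -0.64 to 0.44 (cholesterol synthesis, lowest without WT K1 and highest without WT L2), -0.25 to 0.078 (cytokines), -0.14 to 0.072 (MHC class II), -0.106 to -0.025 (phagocytic receptors), -0.11 to 0.41 (endothelial), -0.50 to 0.17 (mast cell) and 0.27 to 0.91 (lymphoid).

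Signs turned at 300 CPM for MFGE8 (-0.39), ALCAM (0.0098), HLA-DMA (0.22), CPT1B (-0.093) and FGF2 (-0.28), and with 12 libraries for MFGE8 (-1.03), HOOK2 (-0.027), ALCAM (0.015), RPL21 (0.025), TTK (0.15), HLA-DMA (0.18), CPT1B (-0.26) and FGF2 (-1.28).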

Other observations

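Among gene groups not described above, the 33 integrated stress response genes had a median log2 fold change of -0.02 in the collagen-poor set. Of them TRIB3 and NUPR1 (6.1%, against 3.9% of all genes) lay below WT without overlap. The 24 glycolysis genes had a median of 0.02 with none separated. GAPDH read 1729 and 1405 CPM in WT and 1331 to 1915 CPM in LACTB KO. The 26 genes of phosphatidylethanolamine and phosphatidylserine metabolism had a median of 0.00, and LPCAT2 read 563 and 543 CPM in WT against 517 to 607 CPM. In the list of lipid efflux and storage 26 of 37 genes were negative (median -0.09), with 1 above and 1 below (2.7% each, against 3.16% and 3.9% of all genes). PNPLA2, the adipose triglyceride lipase, lay above WT by a narrow margin, at 38.9 and 37.6 CPM against 38.9 to 45.1 CPM, while MGLL lay below.

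The DESeq2 Wald test on the same clone sums called 51 genes, and 44 of them were among the genes whose libraries did not overlap between genotypes. Over all genes tested, 3.16% lay above and 3.9% below without overlap. The calls and the overlaps come from the same 7 libraries, so their agreement is no separate support. The 51 genes included CD163, CD68, GPNMB, CTSK, ATP6V0D2, MSR1, FOLR2, PLXND1, NRP1, TDO2, C2 and EPAS1. Of the 51, 7 separated the genotypes once WT L1 and WT J2 were admitted, namely FCGR2B, GNG12, LAMB2, NUTM2B, PRKCH, RPS2P32 and WLS. At that limit of 300 CPM, 66 of 16499 tested genes lay above and 86 below without overlap.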
